A study of Homo sapiens with 12 samples.

Results

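Tight junctions seal the space between neighboring epithelial cells near their apical side. Their strands are built of claudins, some of which tighten the barrier and some of which form pores, together with the MARVEL domain proteins occludin and tricellulin and the adhesion molecule JAM-A. Scaffold proteins such as ZO-1, ZO-3 and cingulin tie these strands to actin. Loss of junctions between cells is a textbook part of epithelial-to-mesenchymal transition (EMT), which TGFβ drives in lung epithelial cells. The genes described here were 9 components of this structure, chosen by symbol among the 15871 protein-coding genes of the table. They were the claudins CLDN1, CLDN2 and CLDN4, the MARVEL genes OCLN and MARVELD2, F11R (JAM-A), and the scaffold genes TJP1 (ZO-1), TJP3 (ZO-3) and CGN (cingulin).

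The cells were A549, a single established human lung adenocarcinoma line grown in serum, treated with TGFβ at 4 ng/mL and collected at 6 times, namely 0 h, 0.5 h, 12 h, 24 h, 48 h and 96 h. The labels list TGFβ as the treatment of the 0 h cells as well, and 0 h is taken here as the start of the exposure. No parallel culture without TGFβ at the later times was analysed here, so exposure and time in culture cannot be told apart. Each time point had 2 single-cell libraries made by CEL-Seq2, which copies mRNA from its 3′ end and tags each captured molecule with a unique molecular identifier (UMI). Levels below are CPM, the UMIs of a gene in all kept cells of a library per 1000000 UMIs of protein-coding genes, with library sizes scaled by TMM. Of 4608 wells, 1871 held a cell that passed the limits on UMIs, genes and mitochondrial share, 54 to 217 per library, and the fewest came from 96 h. The libraries summed to 1264044 to 4500036 UMIs, so 1 UMI in the smallest was worth 0.791 CPM before scaling. Nothing in the labels marks the replicates as separate cultures, and the p-values therefore cover the spread between these libraries alone, which may be technical. Replicate 1 always carried one set of well barcodes and replicate 2 the other, with 0 barcodes shared. All 6 epithelial markers (KRT7, KRT8, KRT18, KRT19, EPCAM and CDH1) were in the table, with a summed level of 4230 to 8237 CPM per library. The sum did not stand for each of them, and CDH1 was at 0.0 to 1.33 CPM at 96 h. At 96 h 4 of the 6 were lower than at 0 h and 0 higher (edgeR, adjusted p under 0.05), beside 11.1% and 12.5% of all tested genes. Of the endothelial markers, 3 of 6 were in the table, with a summed level of at most 0.664 CPM in any library. Of 6 immune markers 2 were in the table, with a summed level of 7.11 to 9.25 CPM at 0 h and 0.0 to 0.776 CPM at 96 h. The leukocyte gene PTPRC was at 0 in every library, so this level was that of the other marker. Its log2 change from 0 h was -2.49 at 12 h and -4.36 at 96 h. The 6 fibroblast markers summed to 0.458 to 6.99 CPM. They were at 0.547 to 2.31 CPM at 0 h, 6.01 to 6.69 CPM at 48 h and 2.66 to 6.99 CPM at 96 h. In edgeR the 1 tested was higher than at 0 h at 48 h (log2 change 4.00) and 96 h (4.01), beside 10.0% and 12.5% of all tested genes. DESeq2 called it in 0 comparisons.

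Of the 9 genes, 6 had enough UMIs to be tested. OCLN (27 UMIs in all 12 libraries), MARVELD2 (24 UMIs) and TJP3 (10 UMIs) fell below the filter on low counts and are given as counts. CLDN4 passed that filter through its later libraries, having 3 UMIs at 0 h. Distinct patterns stood out among the tested genes. CLDN4 was nearly absent at 0 h, was at its highest at 12 h and 24 h and then fell back in part. CLDN1 had no change that passed through 24 h, and was 2.66-fold lower at 48 h and 3.01-fold lower at 96 h than at 0 h. F11R was 1.59-fold to 2.06-fold higher from 12 h to 96 h. After 0.5 h, 0 members passed in edgeR and 0 in DESeq2, and 0.44% of all 10465 tested genes passed. CLDN4 aside, none of the tested members had an unadjusted p under 0.05 there. At 12 h, 2 members were higher (CLDN4 and F11R) and 0 lower, beside 8.46% of all tested genes higher and 5.83% lower. The same 2 were higher and 0 lower at 24 h (background 7.62% and 5.56%). At 48 h these 2 were higher and CLDN1 was lower (background 10.0% and 8.48%), and likewise at 96 h (background 12.5% and 11.1%). With 6 genes tested, 2 or 3 calls are too few to set against those shares. The median log2 change of the 6 was 0.66 at 12 h and -0.27 at 96 h, against -0.02 and 0.02 for all tested genes. The members thus moved in different directions. The early rise of CLDN4 was among the reasons this gene set was described. Its levels against 0 h are therefore given as a description, and its place in these counts and medians supports nothing further.

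**Figure D1:**
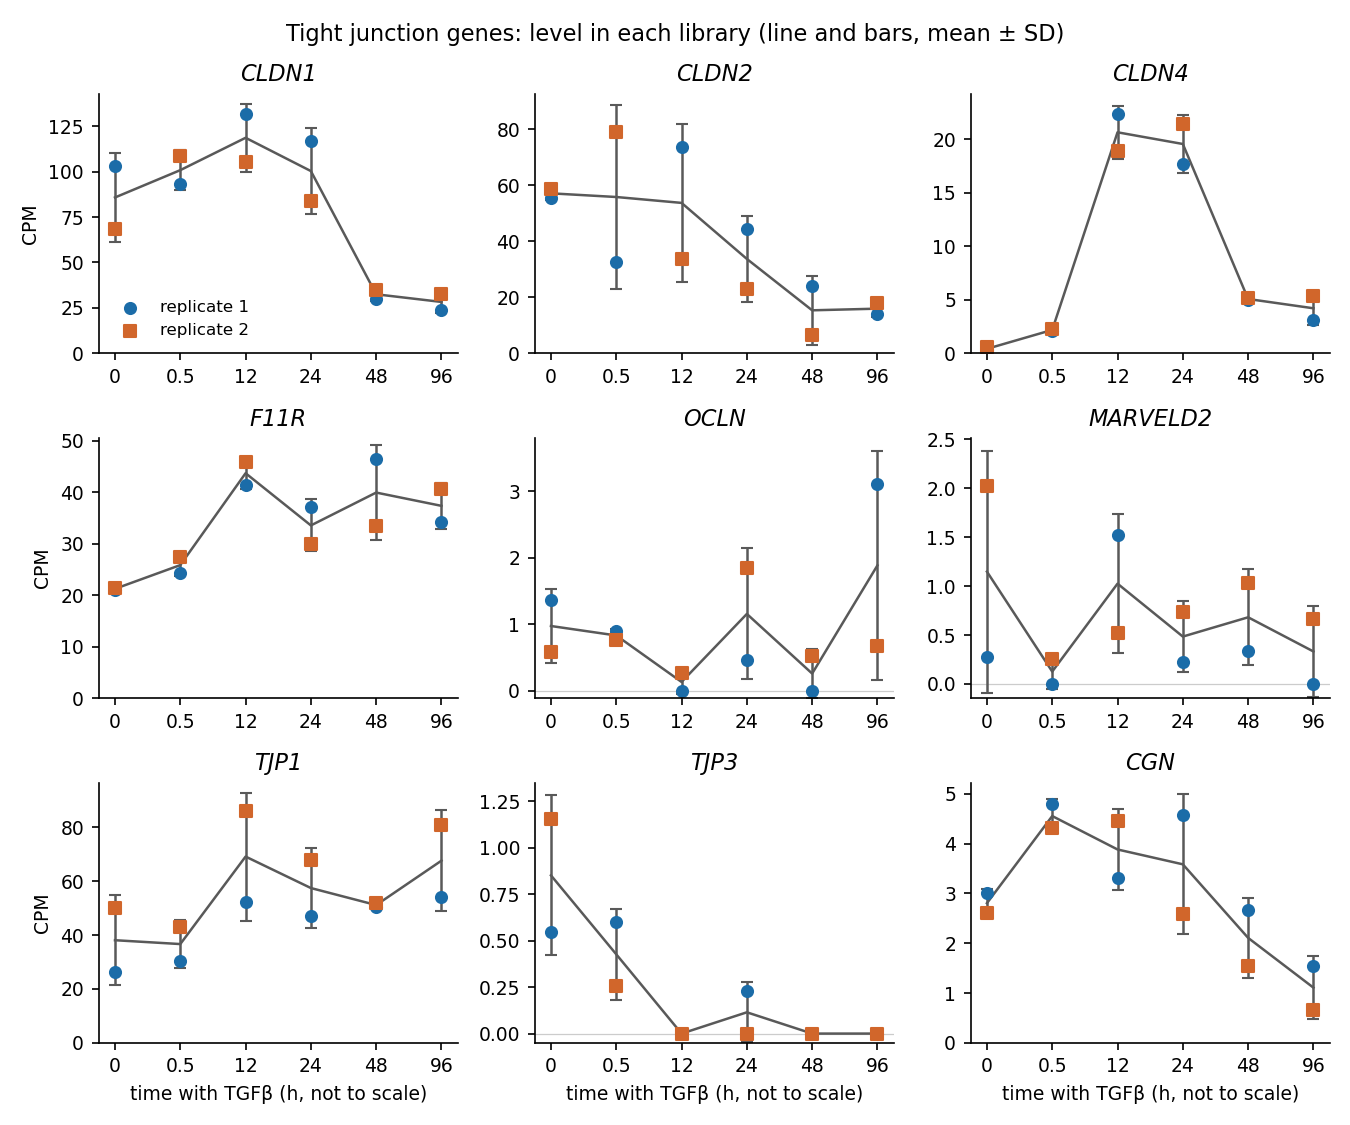
Level of each of the 9 genes in every library (y axis, CPM; the scale differs between panels) against time with TGFβ (x axis, h, evenly spaced). Circles are replicate 1 and squares replicate 2, and lines with bars give the mean ± SD of the 2 libraries. CLDN4 peaked at 12 h and 24 h, CLDN1 dropped between 24 h and 48 h, and OCLN, MARVELD2 and TJP3 stayed at or below 3.11 CPM.

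CLDN4 encodes claudin-4, a claudin that tightens the barrier against sodium. The gene (ENSG00000189143) is on the plus strand of chromosome 7, from 73799542 to 73832690 in GRCh38, and its main transcript has 1 exon. All positions here are in that build. At 0 h it had 1 UMI in replicate 1 and 2 in replicate 2, or 0.273 and 0.578 CPM. At 0.5 h it had 7 and 9 UMIs (2.10 and 2.28 CPM). The level then reached 22.4 and 18.9 CPM at 12 h and 17.6 and 21.5 CPM at 24 h. It was 5.01 and 5.15 CPM at 48 h, and 3.11 and 5.31 CPM at 96 h. The libraries of every later time lay above both 0 h libraries, and those of 12 h and 24 h overlapped each other but no other time. The ratio of summed counts to 0 h was 49.0 at 12 h (exact 95% interval 16.5 to 240.2, counting error only) and 45.3 at 24 h (15.2 to 222.4). These intervals are wide because the 0 h libraries held 3 UMIs together. No p is printed for the changes of CLDN4 from 0 h, and its calls in the counts above are a description only. The gene was chosen with its rise known and reached the filter on low counts through the libraries where it was high. The ratio was 12.0 at 48 h (3.66 to 62.1) and 10.2 at 96 h (2.75 to 56.3). After 0.5 h it was 5.21 (1.49 to 27.9). The value at 96 h rested on 12 UMIs. Its log2 change from 0 h was 3.23 with both 96 h libraries and 2.76 without replicate 2 of 96 h. The summed level of the 6 epithelial markers was also at its highest at 12 h (7559 to 8237 CPM) and 24 h (7180 to 8148 CPM), against 4492 to 5574 CPM at 0 h, with 1 of the 6 higher and 2 lower at 12 h; its part in the CLDN4 values was not tested.

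The later steps of CLDN4 start from the 12 h and 24 h libraries, which its rise had already singled out. No p is given for them either. Between 24 h and 48 h the level fell by 1.93 ± 0.33 (SE) on the log2 scale. In that step edgeR called 2.63% of tested genes and 2 members (CLDN1 and CLDN4) lower. From 12 h to 96 h the CLDN4 level fell by 2.26 ± 0.38 (the same 2 members lower, background 5.54%). The place of CLDN4 in these counts is a description only. Between 12 h and 24 h edgeR called 0 of all tested genes (background 0.0%), DESeq2 called 2, and 572 had an unadjusted p under 0.05. Between 48 h and 96 h the background was 1.21%. In both of these steps 0 members passed in edgeR and 0 in DESeq2, and 0 had an unadjusted p under 0.05.

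More cells had a CLDN4 transcript at 12 h and 24 h than at the other times. At a lower thinning depth, given below, replicate 1 of 24 h was an exception. Over all kept cells, 3 of 347 cells at 0 h had a UMI, 14 of 331 at 0.5 h, 109 of 405 at 12 h, 95 of 390 at 24 h, 22 of 280 at 48 h and 12 of 118 at 96 h. To compare shares at equal depth, each cell was thinned to a fixed number of UMIs that 1684 of the 1871 cells reached. The share with a CLDN4 UMI was then 0.571% and 0% in the 0 h libraries (0 of 157 cells in the latter, which allows a share of cells with a UMI of up to 1.91%), and 4.69% and 2.22% in those of 0.5 h. It was 20.8% and 18.2% of cells at 12 h, with 19.6% and 18.3% of cells at 24 h. The 48 h libraries had 3.10% and 7.0%, and the 96 h libraries 3.92% and 6.35%. Wells with under 1000 detected genes, used as a background for free RNA, had a CLDN4 UMI in 0.457% of cases, with 3.40% in replicate 1 of 12 h as the highest library. These wells held medians of 496 to 1312 UMIs per library against 14137 to 28045 UMIs in the cells, so the shares of background wells given here and for the other genes are at a lower depth than those of the cells and set no level for them. Most positive cells had a single UMI, and 17 of 405 cells at 12 h and 7 of 390 at 24 h had 3 or more, with a maximum of 7. At 12 h, the cells with a CLDN4 UMI had a CLDN1 UMI in 67.6% and 60.0% of cases in the 2 libraries, against 61.0% and 63.7% of the cells without. For TJP1 these shares were 62.2% and 65.7% against 41.1% and 59.9%. At 24 h the order for TJP1 was the opposite, 40.5% and 34.6% against 43.4% and 51.7%.

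CLDN1 encodes claudin-1, a barrier-forming claudin of many epithelia (ENSG00000163347, chromosome 3 at 190305707 to 190322446, minus strand, 4 exons). Its level was 103.0 and 68.5 CPM at 0 h, 92.9 and 108.8 CPM at 0.5 h, 131.7 and 105.4 CPM at 12 h, and 117.0 and 83.6 CPM at 24 h. It was 30.03 and 34.99 CPM at 48 h, and 24.1 and 32.5 CPM at 96 h. The libraries of the first 4 times overlapped along the order of their means, and all of them lay above all 4 libraries of 48 h and 96 h. At 12 h the log2 change from 0 h was 0.47 ± 0.20, which did not pass (adjusted p = 0.133). Without replicate 1 of 0 h, the higher of those libraries, it was 0.79 and passed (adjusted p = 0.0397). At 48 h CLDN1 had fallen by 1.41 ± 0.23 on the log2 scale from 0 h (adjusted p = 6.14e-05), and at 96 h it had decreased by 1.59 ± 0.25 (adjusted p = 4.01e-05), or 3.01-fold. From 24 h to 48 h the level fell by 1.64 ± 0.23 on the log2 scale (adjusted p = 5.6e-05), the lowest adjusted p of any member in that step. From 12 h to 96 h it fell by 2.05 ± 0.25 (adjusted p = 4.07e-06).

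The share of thinned cells with a CLDN1 UMI was 57.1% and 51.0% at 0 h, then 62.4% and 63.0% at 12 h, with 64.6% and 44.4% in the 24 h libraries. It was 28.7% and 29.0% at 48 h, ending with 21.6% and 22.2% in the 96 h libraries. The background wells, at their lower depth, had one in 6.68% of cases. Cells with 3 or more CLDN1 UMIs went from 80 of 201 and 26 of 189 at 24 h to 8 of 131 and 4 of 149 at 48 h, without thinning. The cells of the 24 h libraries had medians of 24805 and 15789 UMIs before thinning, and the part of this gap in the difference between those libraries was not tested. Limits on wells that kept only 206 cells, 6 to 58 per library, gave no call of CLDN1 at 48 h (log2 change -0.88, adjusted p = 0.208) or from 24 h to 48 h (-0.76, adjusted p = 0.506).

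The stretches just upstream of CLDN4 and CLDN1 are shown because these 2 claudins had unlike time courses; the pair was chosen after their values were seen. They are the 250 bases before the annotated start in RefSeq (GRCh38.p14), chr7:73830746-73830995 on the plus strand for CLDN4 and chr3:190322447-190322696 on the minus strand for CLDN1, each written 5′ to 3′ along the gene. Capitals mark matches, on either strand, to TGANTCA (a pattern that covers the core bound by AP-1 factors), CAGAC (a SMAD-binding element), CAGGTG (an E-box bound by Snail and ZEB factors) or ACCGGTT (bound by grainyhead-like factors).
CLDN4: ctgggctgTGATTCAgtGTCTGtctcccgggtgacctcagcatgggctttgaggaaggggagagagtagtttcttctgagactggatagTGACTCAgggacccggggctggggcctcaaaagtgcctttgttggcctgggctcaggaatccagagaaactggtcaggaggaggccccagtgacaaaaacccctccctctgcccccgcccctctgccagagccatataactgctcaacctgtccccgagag
CLDN1: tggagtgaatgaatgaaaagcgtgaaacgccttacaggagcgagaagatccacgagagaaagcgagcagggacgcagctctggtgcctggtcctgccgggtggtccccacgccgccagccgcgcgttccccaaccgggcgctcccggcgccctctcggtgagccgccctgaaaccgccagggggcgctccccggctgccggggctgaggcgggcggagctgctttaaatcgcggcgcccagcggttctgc
The CLDN4 window held TGANTCA beginning 242 and 161 bases before the start, and CAGAC beginning 233 bases before it. The TGANTCA matches read TGATTCA and TGACTCA, in that order. Only TGACTCA is the AP-1 core itself, which has C or G at the N. The CLDN1 window held none of the 4. Among 35116 windows of the same length in RefSeq, 6.573% held TGANTCA, 38.0% held CAGAC, 17.49% held CAGGTG and 0.6265% held ACCGGTT. The table had windows for 8 of the 9 genes, 14 in all. The first CLDN2 window, chrX:106899914-106900163, also held TGANTCA (as TGATTCA) and CAGAC, 60 and 38 bases before the start. A match is a description of letters and does not show that a factor binds there.

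CLDN2 encodes claudin-2, which forms pores for cations and water (ENSG00000165376, chromosome X at 106900164 to 106930861, plus strand). Its level was 55.5 and 58.7 CPM at 0 h, 32.7 and 78.8 CPM at 0.5 h, 73.5 and 33.8 CPM at 12 h, and 44.4 and 22.9 CPM at 24 h. It was 24.0 and 6.69 CPM at 48 h, and 14.0 and 17.9 CPM at 96 h. All libraries of 24 h, 48 h and 96 h lay below both 0 h libraries, but replicates differed by up to 3.59-fold. No comparison of CLDN2 passed the test, with log2 changes of -1.79 ± 0.71 at 48 h (adjusted p = 0.148) and -1.83 ± 0.80 at 96 h (adjusted p = 0.163). Under the stricter limits on wells the change at 48 h was -4.91 and passed (adjusted p = 8.67e-04), as did that from 24 h to 48 h (-4.92, adjusted p = 0.00564). Those limits left 6 and 58 cells at 48 h, with a CLDN2 UMI in 0.0% and 1.72% of them. At 0 h they left 7 and 13 cells, with 28.6% and 30.8%. Both changes thus rest on a 48 h level at the floor and give no size. The thinned share of cells with a UMI was 22.9% and 33.8% at 0 h, then 39.9% and 22.9% at 12 h, with 14.0% and 3.0% in the 48 h libraries, then 11.8% and 11.1% at 96 h, beside 3.48% of background wells.

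CLDN2 UMIs were unevenly spread over the cells. Without thinning, 30.95% of all kept cells had at least 1. In the 7 libraries with at least 100 CLDN2 UMIs, the 10% of cells with the most CLDN2 held 55.7% to 71.6% of its UMIs, while the same cells held 9.83% to 11.05% of all UMIs. For CLDN1, in 8 such libraries, the top 10% of cells held 29.97% to 44.7%. For TJP1 the range was 29.6% to 41.6% in 10 libraries, and for F11R 30.9% to 42.6% in 5. CLDN4 had under 100 UMIs in every library. Its top cells held 60.2% and 54.2% at 12 h (88 and 72 UMIs), and 61.0% and 55.2% at 24 h (77 and 58 UMIs). F11R at 0 h, with 77 and 74 UMIs, had 38.96% and 39.2%. High shares were thus not particular to CLDN2. In replicate 1 of 0.5 h CLDN2 had 109 UMIs and TJP1 had 101, and the shares in the top cells were 71.6% and 36.6%. The highest count of CLDN2 in a single cell was 31 UMIs, at 12 h, where 97 of the 188 cells of that library had none. At 0 h, cells with a CLDN2 UMI had a CLDN1 UMI in 42.5% and 41.5% of cases against 61.5% and 55.8% of the other cells. At 12 h these shares were 62.0% and 68.2% against 62.6% and 61.5%. These are descriptions of thinned cells within libraries, with no test.

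**Figure D2:**
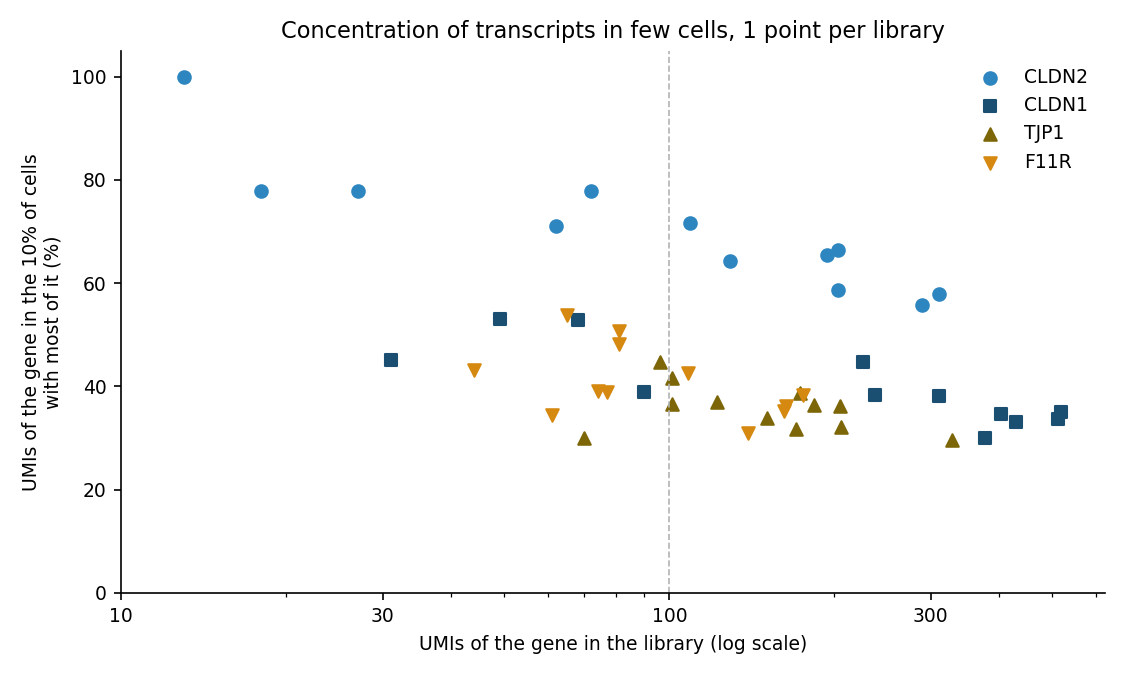
Share of a gene's UMIs held by the 10% of cells with most of it (y axis, %) against the UMIs of that gene in the library (x axis, log scale), 1 point per library for CLDN2, CLDN1, TJP1 and F11R. The dashed line is at 100 UMIs, and to its right CLDN2 lay at 55.7% to 71.6%, above all points of the other genes shown there.

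F11R encodes JAM-A, an immunoglobulin-type adhesion molecule of the junction that also binds polarity proteins (ENSG00000158769, chromosome 1 at 160995211 to 161021343, minus strand, 10 exons). Its level was 21.0 and 21.4 CPM at 0 h, 24.3 and 27.4 CPM at 0.5 h, 41.5 and 45.9 CPM at 12 h, 37.1 and 29.96 CPM at 24 h, 46.4 and 33.4 CPM at 48 h, and 34.2 and 40.5 CPM at 96 h. Every later library lay above both 0 h libraries, and from 12 h on neighboring times in the order of means overlapped. The log2 change from 0 h was 1.04 ± 0.21 at 12 h (adjusted p = 7.83e-04), 0.67 ± 0.21 at 24 h (adjusted p = 0.0339), 0.93 ± 0.21 at 48 h (adjusted p = 2.7e-03) and 0.82 ± 0.23 at 96 h (adjusted p = 0.0116). After 0.5 h it was 0.29 ± 0.21 and did not pass. The call at 24 h was lost without either 0 h library (adjusted p = 0.165 and 0.127) or without replicate 1 of 24 h (0.318). The call at 48 h was lost without replicate 1 of 48 h (0.104). The call at 96 h was lost without replicate 2 of 96 h (0.157) or either 0 h library (0.0636 and 0.0523). The call at 12 h was kept under every omission of a library. Under the stricter limits on wells F11R passed at none of the 4 times (adjusted p = 0.357 to 0.815), and with library sums thinned to the smallest library it did not pass at 24 h (0.341), 48 h (0.0946) or 96 h (0.117). The share of thinned cells with an F11R UMI was 23.4% and 21.7% at 0 h, then 35.4% and 42.2% at 12 h, with 35.98% and 25.4% in the 24 h libraries. It was 40.3% and 31.0% at 48 h, then 39.2% and 31.7% at 96 h, beside 4.39% of background wells. In GENCODE 44 the last exon of F11R is shared with a readthrough gene on the same strand (ENSG00000270149), and reads there could belong to either.

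TJP1 encodes ZO-1, the scaffold that links claudins and occludin to actin (ENSG00000104067, chromosome 15 at 29699367 to 29968915, minus strand). Its level was 26.2 and 50.0 CPM at 0 h, 30.3 and 43.1 CPM at 0.5 h, 52.4 and 86.0 CPM at 12 h, 46.9 and 68.0 CPM at 24 h, 50.4 and 52.0 CPM at 48 h, and 54.3 and 81.0 CPM at 96 h. Replicate 2 was the higher library at 6 of 6 time points, by 1.03-fold to 1.91-fold. The libraries of 12 h, 48 h and 96 h lay above both of 0 h. TJP1 did not pass at any time, with log2 changes of 0.86 ± 0.32 at 12 h (adjusted p = 0.103) and 0.84 ± 0.35 at 96 h (adjusted p = 0.106). Without replicate 2 of 0 h the changes were 1.39 and 1.34 and both passed (adjusted p = 0.0131 and 0.0125), and without replicate 1 of 12 h the change at 12 h was 1.18 (adjusted p = 0.0258). Within a barcode set, the ratio of TJP1 to 0 h was 1.996 for replicate 1 and 1.72 for replicate 2 at 12 h, and 2.07 and 1.62 at 96 h. In a fit with the replicate number as a block TJP1 passed at 12 h (adjusted p = 5.39e-04), 24 h (0.0166) and 96 h (1.38e-03). The share of thinned cells with a UMI was 21.1% and 44.6% at 0 h, then 45.5% and 60.9% at 12 h, with 39.2% and 49.2% in the 96 h libraries, beside 2.70% of background wells.

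CGN encodes cingulin, which joins ZO-1 to actomyosin and binds regulators of RhoA (ENSG00000143375, chromosome 1 at 151510510 to 151538692, plus strand). It had 20 UMIs at 0 h, 33 UMIs at 0.5 h, 30 UMIs at 12 h, 27 UMIs at 24 h, 11 UMIs at 48 h and 3 UMIs at 96 h. Its level was 3.01 and 2.60 CPM at 0 h, 3.31 and 4.46 CPM at 12 h, 2.67 and 1.54 CPM at 48 h, and 1.55 and 0.664 CPM at 96 h. Both 96 h libraries lay below both of 0 h and both of 12 h. No comparison passed. The ratio of summed counts was 0.382 for 96 h against 0 h (exact 95% interval 0.0727 to 1.29, adjusted p = 0.242) and 0.277 for 96 h against 12 h (0.0541 to 0.892, adjusted p = 0.125).

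**Figure D3:**
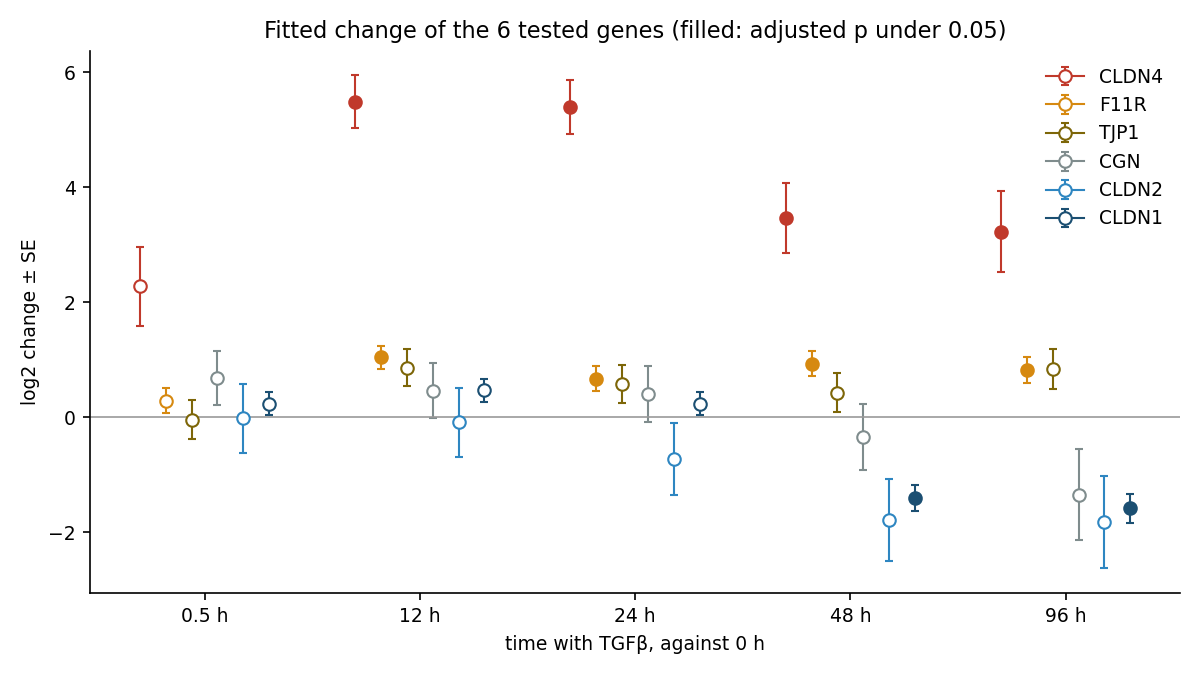
Fitted log2 change from 0 h ± SE (y axis) of the 6 tested genes after 0.5 h, 12 h, 24 h, 48 h and 96 h with TGFβ (x axis). Filled points passed at an adjusted p under 0.05 (edgeR), which were CLDN4 and F11R from 12 h on and CLDN1 at 48 h and 96 h. The CLDN4 points rest on 3 UMIs at 0 h. Their fill is a description only, since the gene was chosen with its rise known.

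The other 3 genes were at the edge of detection. OCLN encodes occludin, a strand protein that regulates the barrier (ENSG00000197822, chromosome 5 at 69492292 to 69558104). It had 7, 6, 1, 7, 1 and 5 UMIs at the 6 times in order, never more than 1 in a cell, and was found in 1.44% of cells beside 0.366% of background wells. MARVELD2 encodes tricellulin, which seals the points where 3 cells meet (ENSG00000152939, chromosome 5 at 69415065 to 69444330). It had 8, 1, 8, 3, 3 and 1 UMIs. TJP3 encodes ZO-3, a scaffold related to ZO-1 (ENSG00000105289, chromosome 19 at 3708362 to 3750813). It had 6 UMIs at 0 h, 3 UMIs at 0.5 h and 1 UMI at 24 h, but 0 UMIs at 12 h, 48 h and 96 h. At 12 h, 0 of 405 cells had a TJP3 UMI, which allows a share of cells with a UMI, not of cells that express the gene, of up to 0.741%. Set against a floor of 3 counts over the time point, the 6 UMIs of 0 h gave a fold of 2.18 to 12 h and 1.39 to 48 h. The counting error of those 6 UMIs is not in these folds, so they are no lower bounds on a decrease. At 96 h the depth gives no such fold. The last exon of TJP3 overlaps APBA3 on the opposite strand, and the strand setting of the counting is not given in the sources used here. For OCLN the interval of the ratio of 96 h to 0 h, 0.456 to 6.66, leaves a change of either direction undetectable at this depth, and for MARVELD2 it was 0.00718 to 2.38.

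**Figure D4:**
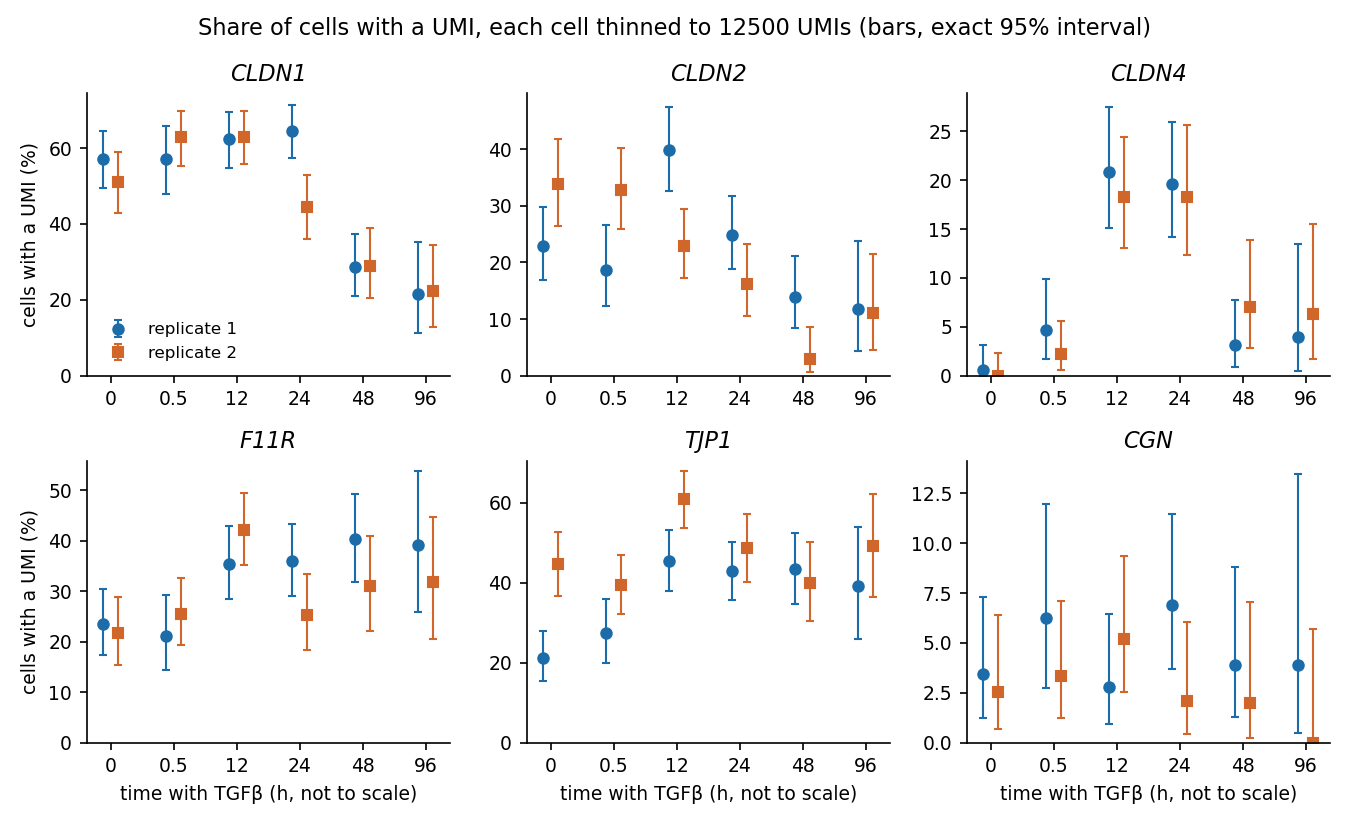
Share of cells with at least 1 UMI of a gene (y axis, %, each cell thinned to the same number of UMIs) in every library against time with TGFβ (x axis, h, evenly spaced), for the 6 tested genes. Circles are replicate 1, squares replicate 2, and bars the exact 95% binomial interval, which covers counting error only. CLDN4 was found in at most 0.571% of cells at 0 h and in 18.2% to 20.8% at 12 h, and CLDN1 in 28.7% and 29.0% at 48 h.

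Counted per cell at equal depth, the mean number of the 9 genes with a UMI was 1.30 and 1.58 at 0 h, then 1.36 and 1.68 at 0.5 h, with 2.09 and 2.14 in the 12 h libraries. It was 1.95 and 1.57 at 24 h, then 1.34 and 1.13 at 48 h, with 1.24 and 1.22 in the 96 h libraries. Both 12 h libraries were above every other library, and both 96 h libraries were below both of 0 h. The 9 include CLDN4, chosen with its rise known. It had a UMI in 0.571% and 0% of these cells at 0 h and in 20.8% and 18.2% at 12 h. Each mean is the sum of the shares of the 9 genes in the same cells, so these shares were the part of CLDN4. Means without CLDN4 are not given. Cells with 3 or more of the 9 made up 8.0% and 16.6% at 0 h, then 34.3% and 36.5% at 12 h, with 11.8% and 12.7% in the 96 h libraries. Cells with none made up 19.4% and 14.0% at 0 h, then 29.4% and 28.6% at 96 h. These are values without a test. Without thinning, the shares of cells with a CLDN1 UMI were 77.3% and 61.4% at 0 h and 44.3% and 31.5% at 48 h, and for CLDN2 33.7% and 42.2% at 0 h and 22.1% and 4.70% at 48 h. For F11R they were 35.9% and 37.3% at 0 h and 53.2% and 50.2% at 12 h, and for TJP1 39.2% and 57.2% at 0 h, then 61.2% and 71.0% of cells at 12 h.

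The genes whose levels followed each member most closely were looked for among 5540 tested protein-coding genes with a mean of at least 20 CPM, by Pearson's r of log2(CPM + 1) over the 12 libraries, which share time, depth and barcode set. For CLDN1 they were UBA2 (r = 0.97), an enzyme subunit of SUMO activation, SLPI (0.97), a secreted protease inhibitor, and DHX15 (0.97), a splicing helicase. SLPI went from a mean of 45.3 CPM at 0 h to 0.257 CPM at 48 h. For CLDN4 they were LMCD1 (0.95), PAWR (0.95) and CMTM4 (0.94), and LMCD1 went from 43.6 CPM at 0 h to 172.2 CPM at 12 h and 116.2 CPM at 96 h. For F11R they were DBN1 (0.93), the actin-binding protein drebrin, BMP1 (0.92), a procollagen protease, and CDKN1A (0.92), the cell cycle inhibitor p21. For TJP1 they were ELF1 (0.97), RBMS1 (0.92) and LUZP1 (0.90). For CLDN2 they were TUBG1 (0.95), EIF2B4 (0.93) and ATP2A2 (0.93), and for CGN PCGF5 (0.93), RTCB (0.92) and DCDC2 (0.91). With the highest r taken from so many genes, these values describe the libraries and carry no test.

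Other genes of the junction also moved in different directions. Of 21 other claudins, 12 were in the table and 3 were tested (CLDN3, CLDN12 and CLDN15), and 0 of these passed at any time in edgeR or in DESeq2. In the 27 edgeR tests of these genes, 2 had an unadjusted p under 0.05. Their log2 changes from 0 h had medians of 0.27 at 12 h and -0.25 at 96 h. Of 8 other membrane proteins of the junction only CXADR, an adhesion molecule also used as a virus receptor, was tested. It went from 30.3 to 32.0 CPM at 0 h to 17.8 CPM at 12 h and 12.0 to 14.0 CPM at 96 h (log2 change -1.27 ± 0.27, adjusted p = 1.22e-03). Of 12 other scaffold genes 10 were tested, of which 2 were higher and 2 lower at 96 h (background 12.5% and 11.1%). MAGI3 was higher (log2 change 1.30 ± 0.30, adjusted p = 2.46e-03), as was MAGI1 (1.88 ± 0.54, adjusted p = 0.0131). AMOTL2 (-1.18 ± 0.24, adjusted p = 5.82e-04) and AMOTL1 (-1.01 ± 0.31, adjusted p = 0.0176), angiomotin-like scaffolds, were lower. AMOTL2 was also the one scaffold gene that passed after 0.5 h, where it was higher, at 114.8 to 160.0 CPM against 65.0 to 87.7 CPM.

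Genes of apical-basal polarity, which place the junction, had 10 tested members. At 12 h 2 were higher and 1 lower (background 8.46% and 5.83%), and at 96 h 0 were higher and 3 lower (background 12.5% and 11.1%). LLGL2, a basolateral polarity protein, went from 22.7 to 29.2 CPM at 0 h to 2.66 to 3.11 CPM at 96 h (log2 change -3.16 ± 0.40, adjusted p = 1.48e-06). PARD6B of the PAR complex fell by 1.91 ± 0.31 (adjusted p = 4.88e-05) on the log2 scale. PRKCI, the kinase of the same complex, was higher at 12 h (0.64 ± 0.21, adjusted p = 0.04) and DLG1 as well (0.85 ± 0.24, adjusted p = 0.0183), and neither passed at 96 h. LIN7C was the third gene lower at 96 h (-0.71 ± 0.20, adjusted p = 0.0115). Of 11 tested genes of junction signalling to RhoA and myosin, 1 was higher and 1 lower at 12 h (background 8.46% and 5.83%). At 96 h 1 of them was higher and 2 lower (background 12.5% and 11.1%). ARHGEF18, an activator of RhoA at junctions, was higher from 12 h (2.11 ± 0.21, adjusted p = 7.21e-08) to 96 h (1.63 ± 0.24, adjusted p = 1.38e-05). MYLK, a kinase of the myosin light chain, was lower at 12 h (-1.27 ± 0.32, adjusted p = 8.23e-03) and 96 h (-1.14 ± 0.39, adjusted p = 0.039). ARHGEF2, which is held inactive at tight junctions by cingulin, was lower at 96 h (-1.59 ± 0.46, adjusted p = 0.0176).

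Desmosome genes, which encode another kind of cell contact, had 10 tested members, with 4 higher and 2 lower at 12 h (background 8.46% and 5.83%) and 2 and 2 at 96 h (background 12.5% and 11.1%). JUP (plakoglobin) went up and then down, from 146.2 and 151.4 CPM at 0 h to 377.3 and 404.4 CPM at 12 h (log2 change 1.39 ± 0.21, adjusted p = 1.12e-04) and 61.3 and 65.1 CPM at 96 h (-1.23 ± 0.24, adjusted p = 8.93e-04). The desmosomal cadherins DSC2 (1.59 ± 0.30, adjusted p = 3.45e-04) and DSG2 (0.82 ± 0.16, adjusted p = 5.25e-04) were higher at 96 h, and PKP2, a plaque protein, was lower (-2.23 ± 0.49, adjusted p = 1.4e-03). PPL was lower at 12 h on 1 UMI against 16 at 0 h. In a last list of adhesion genes and factors that act on epithelial junction genes, 6 genes were tested, and 2 of them were in the epithelial marker list too. Of the 6, 0 were higher and 3 lower at 12 h (background 8.46% and 5.83%). At 96 h 0 were higher and 4 lower (background 12.5% and 11.1%). After 0.5 h 1 was higher and 0 lower, beside 0.44% of all tested genes in either direction. CDH1 (E-cadherin) went from 256 UMIs at 0 h to 62 at 12 h and 2 at 96 h and passed at both times, with a log2 change of -2.16 ± 0.34 at 12 h (adjusted p = 1.01e-04). The epithelial factor ELF3 fell by 1.44 ± 0.23 on the log2 scale at 12 h (adjusted p = 1.6e-04) and fell by 4.09 ± 0.34 at 96 h (adjusted p = 1.94e-08), and KLF5 fell by 1.25 ± 0.24 at 96 h (adjusted p = 3.53e-04). EHF had 36 UMIs at 0 h and 1 at 96 h, and was lower there too. At 12 h, when CLDN4 was at its highest, CDH1 and ELF3 were thus already below their 0 h levels.

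**Figure D5:**
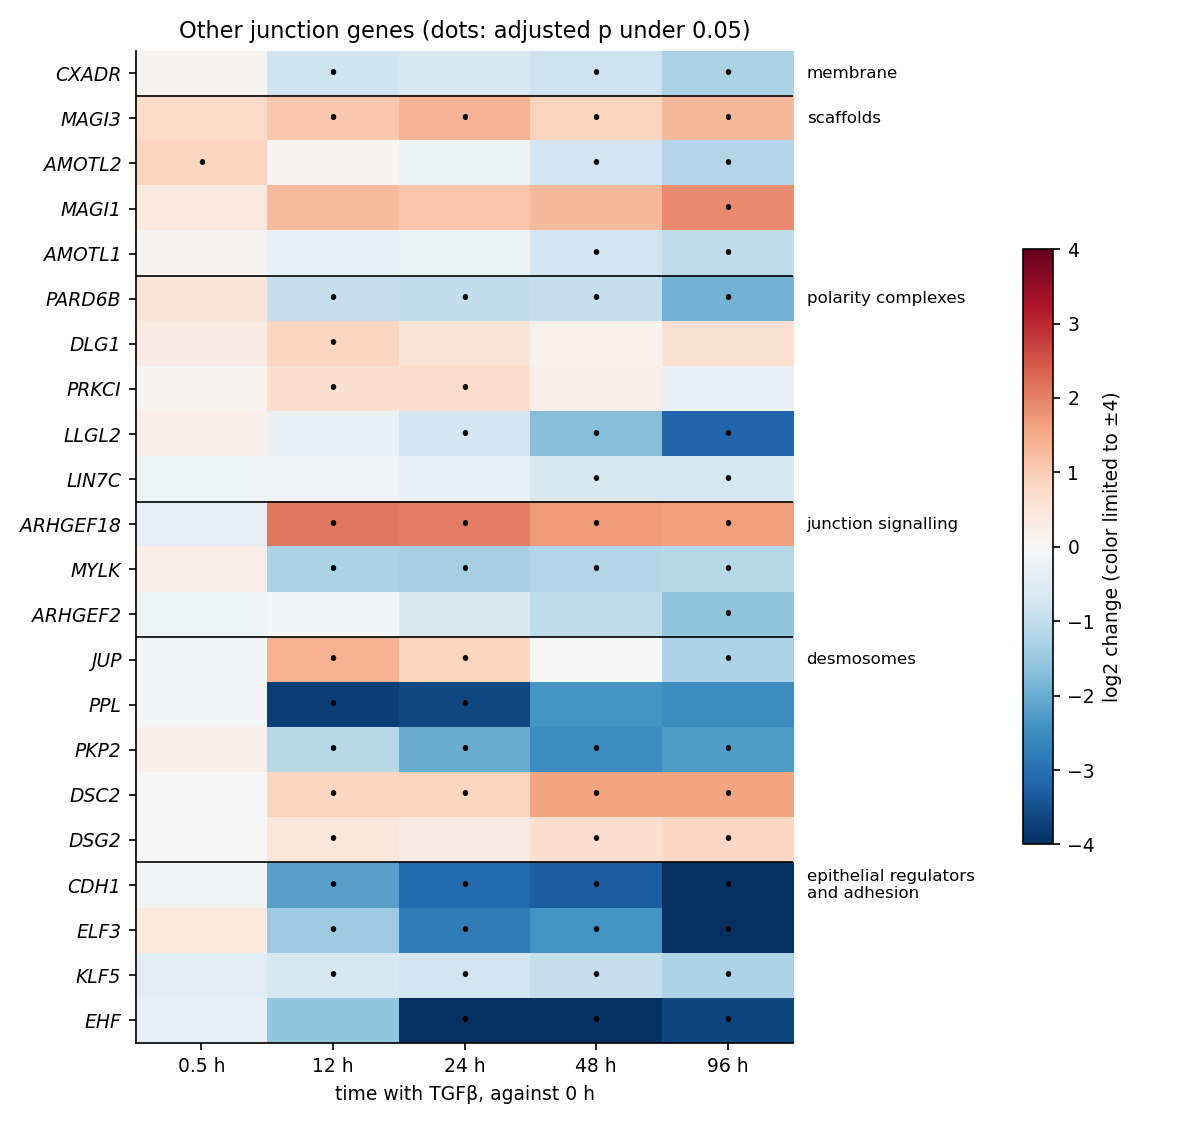
Fitted log2 change from 0 h (color, limited to 4 in either direction) of the other junction genes that the naming rule took, grouped by list (rows), after 0.5 h, 12 h, 24 h, 48 h and 96 h (columns); dots mark an adjusted p under 0.05. ARHGEF18 and MAGI3 stayed higher from 12 h on, JUP turned from higher to lower, and CDH1, ELF3 and LLGL2 were lowest at 96 h; the colors of EHF from 24 h, PPL from 12 h and CDH1 at 96 h rest on 0 to 2 UMIs and give no size.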

How the data were processed

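Counts per gene and well from 12 CEL-Seq2 libraries of A549 cells (6 times with TGFβ, 2 libraries each) were analysed. The table deposited by the authors holds whole-number UMI counts, not normalized. Per the labels, the authors used Trim Galore 0.6.7, HISAT2 2.2.1, featureCounts 2.0.1, UMI-tools and GRCh38. Neither the annotation release nor the strandedness of counting is known here, which leaves overlapping genes uncertain. Wells were kept at 100 to 40000 UMIs, 2000 to 7000 genes and at most 35% mitochondrial counts, the limits the study states; they left 1871 cells here, fewer than the study gives, and the cause was not tested. No doublet caller was run, since cells were sorted singly into wells. For each library, the kept cells' counts of 15871 protein-coding genes were added up, and 10465 passed filterByExpr. Sums were tested with edgeR 4.0.16 (R 4.3.3; TMM, robust quasi-likelihood F test) in 1 fit with a mean per time and 6 residual degrees of freedom. The 9 comparisons were each later time against 0 h, each step from 12 h on, and 96 h against 12 h. Adjusted p-values are Benjamini-Hochberg over all tested genes of a comparison, with a threshold of 0.05, and SEs were derived from the F statistic of each change.

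Where an omitted library left 1 at a time point, that library was assumed to vary like the others. For shares, cells were thinned to a depth that 1684 of 1871 reached (seed fixed). Wells under 1000 detected genes served as background. Ratios from few counts carry exact 95% intervals. Positions are from GENCODE 44, and promoter windows from RefSeq. The script was tested on simulated data. All 9 members are named in every comparison. From each gene list up to 4 genes with the lowest adjusted p that passed at 12 h and at 96 h against 0 h are named, and for each tested member the 3 genes with the highest r. Members and lists were chosen with earlier results of these data known. Genes of the lists that were not in the table were not analysed here. Alternatives were DESeq2 1.42.0, RLE scaling, other low-count filters, all gene types, other limits on wells, thinned sums, equal weight per cell, the replicate number as a block and each library left out.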

Additional observations from a re-analysis of the deposited data

How the results depend on the processing

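No change of a member that passed turned its direction under any alternative. Stricter limits on wells (at least 3000 genes and at most 20% mitochondrial counts, 206 cells) put CLDN4 under the low-count filter and called 0 members at 12 h and 0 at 24 h, 1 at 48 h and 1 from 24 h to 48 h (CLDN2, not called otherwise, in place of CLDN1), and 1 at 96 h and 1 from 12 h to 96 h (CLDN1). The CLDN2 calls rest on a 48 h level at the floor, as given above. Under these limits the genes changed over the whole table numbered 302 at 12 h and 630 at 96 h, against 1495 and 2477. DESeq2 called 1 member at 24 h (CLDN4, with F11R lost at an adjusted p of 0.11). With sums thinned to the smallest library, edgeR called 1 at 24 h and 1 at 96 h, where CLDN4 and F11R (adjusted p = 0.117) were both lost. F11R was also lost at 48 h there (adjusted p = 0.0946). With each library left out in turn, 2 to 3 members passed at 12 h and at 48 h, 1 to 2 at 24 h, and 1 to 3 at 96 h. Without a low-count filter TJP1 passed at 12 h (log2 change 0.86, adjusted p = 2.89e-04), 24 h (adjusted p = 0.0436) and 96 h (adjusted p = 2.15e-03). Deviations of same-numbered libraries correlated at -0.119 to 0.432 over 15 pairs of times. They were negative in all 5 pairs with 0.5 h and positive in all the others (0.099 to 0.432). The main fit did not take the number to pair the samples, and a fit with it as a block is given beside it. With the replicate number as a block, 3 members passed at each of 12 h, 24 h and 48 h and 4 members at 96 h, since TJP1 passed at 12 h (0.87, adjusted p = 5.39e-04), 24 h (0.62, 0.0166) and 96 h (0.85, 1.38e-03), and 823 genes of the whole table changed from 24 h to 48 h, against 548. The other calls of the members were the same with the block. Depth limits OCLN, MARVELD2, TJP3 and CGN throughout, and all members at 96 h, which had 54 and 64 cells.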
